A study of Mus musculus with 4 samples.

Results

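The genes described here make, sense and move cholesterol in brown adipose tissue (BAT). They were 32 of the 20145 genes that could be named on the arrays, and 43 of the 55681 probes. There were 17 enzymes of the synthesis pathway, 4 genes of its SREBP control, 6 genes of sterol transport inside the cell, and 5 genes of efflux and storage. The list was chosen by the difference between AP-treated and vehicle-treated mice on these same arrays, with the enzymes set against the transport genes Gramd1b and Npc1. The AP differences of the members are for that reason given as a description with no test.

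The arrays measured RNA of BAT from male mAP2-Fv2E-PERK transgenic (Tg) mice of the C57/BL6N strain, aged 8 weeks, sampled 12 h after an intraperitoneal injection. Of these, 2 mice received vehicle (ethanol, PEG-400 and Tween-20 in water) and 2 received AP (AP20187), an artificial ligand that dimerizes and switches on Fv2E-PERK, a fusion of an artificial dimerization domain with the kinase domain of PERK, a kinase of eIF2α. Both groups carry the transgene, which the promoter of aP2 (Fabp4) drives in white and brown adipose tissue, and no mouse without it was arrayed. The study also describes that promoter as active in monocytes and macrophages, and reports Fv2E-PERK in spleen and peritoneal macrophages. The labels give the dose of AP as 1 ng/g, which differs from the dose in the figure legend of the study. Each mouse had its own one-color array, and values below are log2 signals with the array's own 75th percentile set to 0. The arrays shared 1 slide and 1 scan. In the barcode, 1 of the numbers for place on the slide was 1 for both vehicle arrays and 3 and 4 for the AP arrays. Place on the slide in that direction and treatment cannot be told apart. As nothing in the labels says how the 2 mice of a group were bred or housed, the spread between them covers only these animals. Between 46.4 and 49.0% of spots were well above background on each array and 0 were saturated. The number of arrays limits the precision.

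Cholesterol is built from acetyl-CoA through mevalonate and squalene to lanosterol, whose ring is then trimmed to cholesterol. The transcription factor SREBP-2 drives most genes of this pathway. When sterol in the ER membrane is plentiful, INSIG proteins hold SCAP and SREBP-2 in the ER, and when it is low SREBP-2 is carried to the Golgi apparatus and cut to its active form. NPC1 and NPC2 let cholesterol out of lysosomes, the GRAMD1 (Aster) proteins and STARD4 carry it between membranes, LXR receptors switch on the efflux pumps ABCA1 and ABCG1, and SOAT1 esterifies it for storage.

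Since the enzymes share SREBP-2 and its partner NF-Y, their promoters are shown first. RefSeq promoters of build GRCm38.p6 were matched for 25 of the 32 members, among them 14 of the 17 enzymes. Promoters of Fdps, Fdft1, Sqle, Npc1, Stard4, Gramd1b and Abcg1 were not analysed here. Each sequence below runs 5′ to 3′ on the strand of its gene and ends at the base before the transcription start. Capitals mark CCAAT, the letters NF-Y binds, or their complement ATTGG, and in Hmgcs1 also the match to the sterol response letters TCACNCCAC. Hmgcs1 is shown because it was the only one of the 25 genes with that match. Mvd, Idi1, Lss, Cyp51 and Nsdhl are shown because they varied widely between mice. Sc5d, Pmvk and Msmo1, with ranges of 2.44, 1.88 and 1.47, varied more than Idi1 at 1.36 and are not shown. Dhcr7 is shown because it went another way in the AP-treated mice. For Dhcr7, which has several starts in the table, the start with CCAAT is shown.
Hmgcs1, chr13:119690171-119690350, plus strand: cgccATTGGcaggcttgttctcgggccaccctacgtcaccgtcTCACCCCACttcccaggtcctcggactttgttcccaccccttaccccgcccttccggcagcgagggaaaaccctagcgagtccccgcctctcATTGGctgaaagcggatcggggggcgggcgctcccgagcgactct
Mvd, chr8:122443423-122443572, minus strand: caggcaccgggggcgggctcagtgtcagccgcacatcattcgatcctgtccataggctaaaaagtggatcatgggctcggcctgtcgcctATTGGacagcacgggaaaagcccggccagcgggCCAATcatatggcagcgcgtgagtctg
Idi1, chr13:8885456-8885605, plus strand: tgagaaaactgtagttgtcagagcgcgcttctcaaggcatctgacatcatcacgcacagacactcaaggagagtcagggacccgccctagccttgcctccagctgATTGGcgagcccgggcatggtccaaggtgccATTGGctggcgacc
Lss, chr10:76531455-76531604, plus strand: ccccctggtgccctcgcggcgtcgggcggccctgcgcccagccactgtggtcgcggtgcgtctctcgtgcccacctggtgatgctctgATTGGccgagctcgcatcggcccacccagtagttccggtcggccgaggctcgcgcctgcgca
Cyp51, chr5:4104698-4104847, minus strand: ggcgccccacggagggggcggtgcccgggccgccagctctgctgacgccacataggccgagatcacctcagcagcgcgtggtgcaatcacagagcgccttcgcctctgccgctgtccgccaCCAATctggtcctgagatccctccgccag
Nsdhl, chrX:72918371-72918520, plus strand: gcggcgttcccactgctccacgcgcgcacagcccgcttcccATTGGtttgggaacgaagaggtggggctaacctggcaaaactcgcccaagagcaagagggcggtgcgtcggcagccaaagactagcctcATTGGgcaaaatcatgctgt
Dhcr7, chr7:143830064-143830213, plus strand: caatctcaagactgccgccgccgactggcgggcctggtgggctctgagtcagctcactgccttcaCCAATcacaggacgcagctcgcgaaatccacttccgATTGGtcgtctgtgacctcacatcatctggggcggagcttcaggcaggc

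Over the 250 bases before the start, on both strands, CCAAT was found in all 14 enzymes with a promoter, against 37.5% of the 27025 genes in the table. The Sp1 letters GGGCGG were in 13 of the 14, against 35.4% of genes. The sterol response letters TCACNCCAC were in 1 of the 14, against 1.22% of genes, and the shorter form CACNCCAC inside them, added after these results had been seen, was also in 1 of the 14, against 6.05%. The E-box CACGTG was in 3 of the 14, against 6.86%. The letters TGATGNAAT, which ATF4 of the integrated stress response (ISR) binds, were in 0 of the 25 members, against 0.910% of genes. Among the 11 members outside synthesis, CCAAT was in 7 and GGGCGG in 7. Such matches describe these windows only, and promoters of like base composition were not set apart.

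Of 6 ISR genes listed as a check of the labels, 5 were higher in both AP-treated mice, where 18% of all probes were. Atf3, a stress-induced transcription factor, overlapped between the groups with a difference of -0.62. Trib3, a pseudokinase induced by ATF4, had log2 signals of 2.78 and 2.33 with vehicle and of 6.26 and 8.01 with AP. Ddit3, the ISR transcription factor CHOP, had 2.18 and 1.86 with vehicle and 3.03 and 4.22 with AP. Both genes were higher in AP replicate 2 than in AP replicate 1. Ucp1, the uncoupling protein that defines brown fat, lay between 9.66 and 10.41 in the 4 mice, so this marker was bright in every one of them, and all 12 brown adipocyte markers of the list passed the filter.

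Over all arrays, 24966 probes were compared, among them 40 probes of 31 members. With limma and Benjamini-Hochberg adjustment, 0% of probes passed the threshold of 0.05, and the lowest adjusted p was 0.799. Before adjustment, 3.3% of probes were under a limma p of 0.05 with a higher AP mean and 2.77% with a lower one, 1516 probes in all. For a single gene, the exact two-sided permutation test of 2 against 2 mice cannot go below p = 0.333. In bulk tissue, fewer cells of a type and less RNA per cell cannot be told apart.

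The synthesis enzymes had somewhat lower means with AP, but the mice of the groups were interleaved. The AP mean was below the vehicle mean in 15 of 17 enzymes, where 51.3% of all probes had a lower AP mean, and the median difference was -0.26 on the log2 scale, against -0.012 over all probes. The count was from 14 to 16 of 17 under the alternative settings with all mice kept. Single differences ran from -1.09 for Dhcr7 to 0.89 for Fdft1, with standard errors from 0.23 to 0.96. In 16 of 17 enzymes the AP and vehicle mice overlapped. Both AP-treated mice were below both vehicle-treated mice in 1 enzyme, Dhcr7, where 20.4% of all probes had that order, and above them in 0 enzymes, where 18% of all probes did. The median and the count turned on single mice. Without vehicle replicate 1 the median was 0.16 and 4 of 17 enzymes were lower, and without AP replicate 1 it was 0.11 with 6 of 17 lower. Without vehicle replicate 2 it was -0.92 with 16 of 17 lower, and without AP replicate 2 it was -0.82 with 14 of 17 lower.

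**Figure D1:**
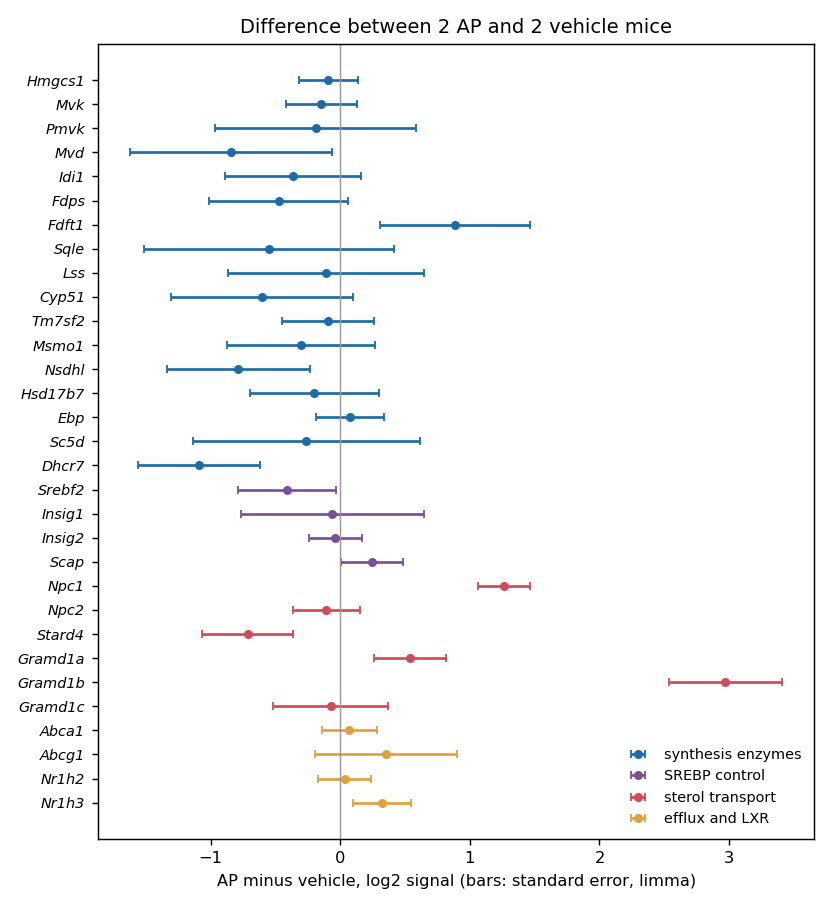
AP minus vehicle difference of the log2 signal for the 31 members compared, with the limma standard error as bars, in 2 AP-treated and 2 vehicle-treated Tg mice. The enzymes lie mostly left of 0 with wide bars, from -1.09 to 0.89, while Gramd1b at 2.97 and Npc1 at 1.26 lie to the right.

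What the enzymes shared was a difference between mice of the same group. Signal was higher in vehicle replicate 1 than in vehicle replicate 2 for 17 of 17 enzymes, with a median difference of 1.25, and higher in AP replicate 2 than in AP replicate 1 for 14 of 17, with a median of 0.74. Over all probes these medians were 0.11 and 0.012. In 14 of 17 enzymes vehicle replicate 1 and AP replicate 2 were both above vehicle replicate 2 and AP replicate 1, where 22.1% of all probes had this order. The exceptions were Fdft1, Tm7sf2 and Dhcr7. The reverse order was found in 0 of 17 enzymes, where 12.8% of all probes had it. Vehicle replicate 1 was the highest of the 4 mice for 12 enzymes and AP replicate 1 the lowest for 12. This pattern was noticed after the values had been seen and has no test, and the enzymes of 1 mouse share 1 array.

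**Figure D2:**
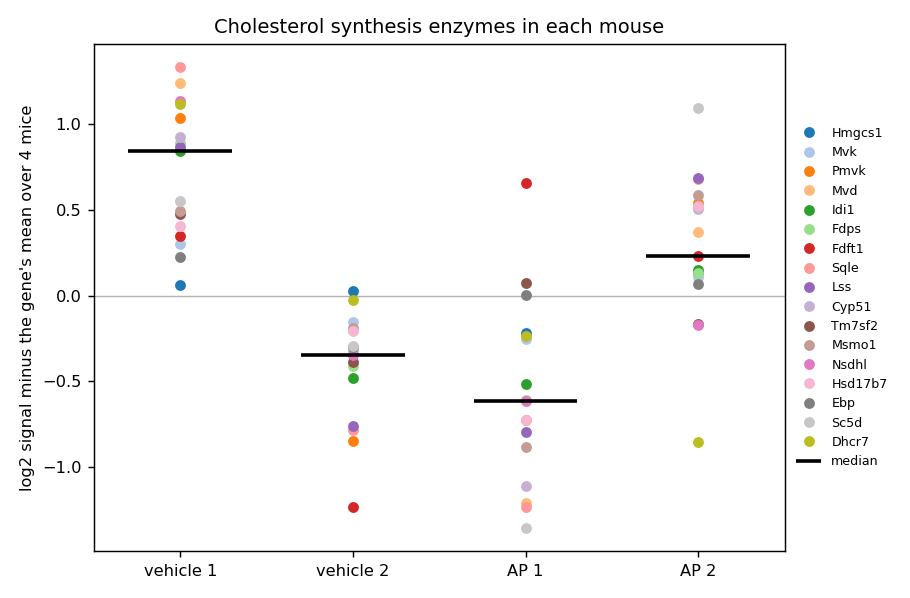
Log2 signal of the 17 synthesis enzymes in each mouse, minus the mean of the gene over the 4 mice, with 1 point per gene and a bar at the median. The medians are 0.84 and -0.35 with vehicle and -0.61 and 0.23 with AP, so the spread inside each group is larger than the shift between groups.

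The first steps lead from acetyl-CoA to mevalonate and its phosphates. Hmgcs1, the HMG-CoA synthase that feeds the pathway, had log2 signals of 5.81 and 5.77 in vehicle replicates 1 and 2 and of 5.53 and 5.88 in AP replicates 1 and 2. Mvk, mevalonate kinase, had 4.38 and 3.93 with vehicle and 3.83 and 4.19 with AP. Pmvk, which adds the second phosphate, had 7.38 and 5.49 with vehicle and 5.62 and 6.88 with AP. Over the 4 mice Hmgcs1 had a range of 0.35 and Mvk of 0.55, while for Pmvk the mice were 1.88 apart inside the vehicle group and 1.26 inside the AP group. A second probe of Pmvk showed the same order of mice. A second probe of Mvk gave an AP minus vehicle difference of -0.44, with both AP-treated mice below both vehicle-treated mice, against -0.15 with overlap for the brighter one. Mvd, the decarboxylase that makes isopentenyl diphosphate, had 1.89 and 0.26 with vehicle and -0.55 and 1.03 with AP. Its difference was -0.84 (SE 0.78), and it was between -1.66 and -0.026 with a mouse left out.

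The isoprenoid and squalene steps showed the same split between mice, apart from Fdft1. Idi1, the isomerase of isopentenyl diphosphate, had 4.03 and 2.71 with vehicle and 2.67 and 3.34 with AP. Fdps, which joins the units to farnesyl diphosphate, had 5.52 and 4.22 with vehicle and 4.03 and 4.77 with AP. Sqle, squalene epoxidase and a rate-limiting step, had 4.01 and 1.90 with vehicle and 1.45 and 3.36 with AP. By the brightest probe of each enzyme, Sqle had the widest gap between the vehicle-treated mice, 2.12. Fdft1, squalene synthase, had 4.84 and 3.26 with vehicle and 5.15 and 4.73 with AP. It was the enzyme with the highest AP minus vehicle difference, 0.89 (SE 0.58), which was 0.095 without vehicle replicate 2 and was 1.68 without vehicle replicate 1. A second, dimmer Fdft1 probe was well above background in 2 mice and was not compared.

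Lanosterol formation and the first changes to its ring followed. Lss, which closes the ring to lanosterol, had 1.93 and 0.30 with vehicle and 0.27 and 1.75 with AP. Cyp51, the lanosterol demethylase, had 0.65 and -0.60 with vehicle and -1.38 and 0.23 with AP. Msmo1, the C4-methyl sterol oxidase, had 3.54 and 2.86 with vehicle and 2.16 and 3.63 with AP. The range of Lss over the 4 mice was 1.66 and that inside the vehicle group was 1.63, while its AP minus vehicle difference was -0.11 (SE 0.75). Nsdhl, the C4 decarboxylase that acts with Msmo1, had 2.92 and 1.44 with vehicle and 1.17 and 1.61 with AP. Its difference was -0.79 (SE 0.55), and that of its second probe was -0.37. Hsd17b7, the ketoreductase of the same complex, had -0.69 and -1.30 with vehicle and -1.82 and -0.57 with AP. The probes of Hsd17b7 differed in sign, at -0.20 and 0.37, and in both of them AP replicate 2 was the highest mouse. Tm7sf2, a C14 reductase, had 2.11 and 1.25 with vehicle and 1.70 and 1.47 with AP, so both AP-treated mice lay between the vehicle-treated mice.

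The last steps complete the sterol nucleus. Ebp, the sterol isomerase, had 5.06 and 4.54 with vehicle and 4.85 and 4.91 with AP, and its difference of 0.075 ran from -0.086 to 0.16 across the alternative settings with all mice kept. Sc5d, the C5 desaturase, had 4.37 and 3.53 with vehicle and 2.47 and 4.91 with AP. The gap of 2.44 between the AP-treated mice was the widest of any enzyme probe compared. Dhcr7, which makes cholesterol from 7-dehydrocholesterol, had 1.53 and 0.39 with vehicle and 0.18 and -0.44 with AP. Its difference was -1.09 (SE 0.47), and it ran from -1.66 to -0.52 with a mouse left out. The lower of the vehicle-treated mice and the higher of the AP-treated mice were 0.21 apart.

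**Figure D3:**
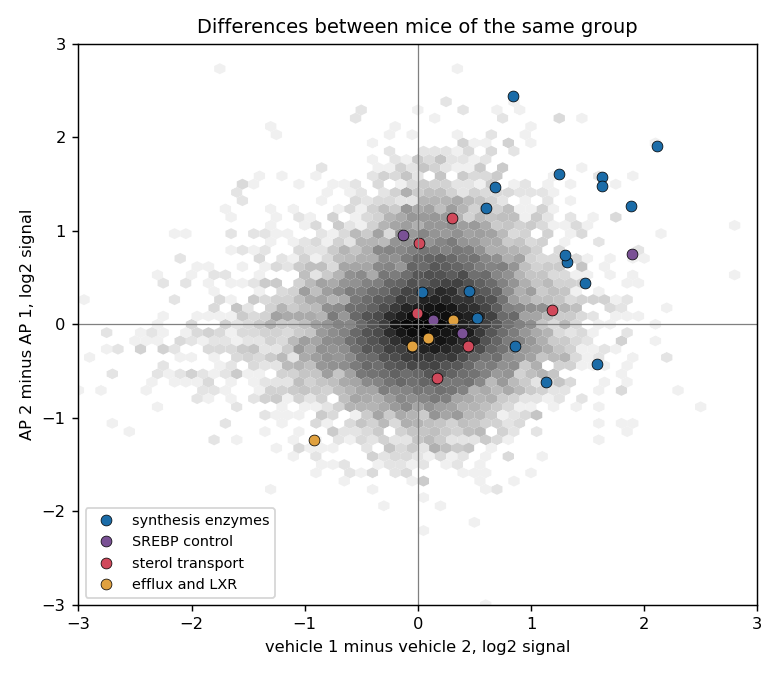
Difference between the vehicle-treated mice (replicate 1 minus replicate 2) against that between the AP-treated mice (replicate 2 minus replicate 1), both in log2 signal, with the members as colored points over all probes compared (gray, darker with more probes on a log scale). Probes beyond the axes are not drawn. Of 17 enzymes, 14 lie at the upper right. These 14 also had vehicle replicate 1 and AP replicate 2 both above vehicle replicate 2 and AP replicate 1. That order, stricter than a place at the upper right, was found in 22.1% of all probes. The share of all probes at the upper right was not counted.

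The control genes of SREBP did not share one pattern. Srebf2, which encodes SREBP-2, had -0.41 and -0.28 with vehicle and -1.23 and -0.27 with AP, so only AP replicate 1 stood apart, and a second probe did not single that mouse out. Insig1, itself a target of SREBP-2 that holds SCAP in the ER, had 3.32 and 1.42 with vehicle and 1.93 and 2.69 with AP. Insig1 thus had the order of mice of the enzymes, with 1.90 between the vehicle-treated mice. Insig2, its relative that depends less on sterols, had the same order in a far narrower range, from 2.38 to 2.52. A dimmer Insig2 probe did not have that order. In it both AP-treated mice were below both vehicle-treated mice, the nearest by 0.029, with a difference of -0.057. Scap, the escort of SREBP-2, had 4.11 and 3.71 with vehicle and 4.20 and 4.11 with AP. The AP-treated mice were both above the vehicle-treated mice for Scap, the nearest of them by 0.00081, with a difference of 0.24 (SE 0.24). The median of the 4 control genes was -0.049 and 0.036 with median scaling, and it was 0.24 without vehicle replicate 1, -0.23 without vehicle replicate 2, 0.13 without AP replicate 1 and -0.25 without AP replicate 2.

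The transport genes held the members with the clearest separation of the groups. Gramd1b, an Aster protein that moves plasma membrane cholesterol to the ER, had log2 signals of 0.094 and -0.21 with vehicle and of 2.35 and 3.48 with AP. The difference was 2.97 (SE 0.44), a 7.84-fold higher AP mean, and it stayed between 2.40 and 3.54 with any mouse left out. Npc1, the lysosomal membrane protein that exports cholesterol, had -0.19 and -0.18 with vehicle and 1.02 and 1.14 with AP. The mice of each group were within 0.12 of each other, and the difference was 1.26 (SE 0.20), a 2.40-fold higher AP mean, between 1.20 and 1.32 with any mouse left out. Each had 1 probe. Since the list was chosen with these genes in view, the sizes describe these mice and support nothing further.

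Other transport genes differed less or the other way. Gramd1a, a second Aster protein, had 2.80 and 2.63 with vehicle and 3.54 and 2.97 with AP, a difference of 0.54 (SE 0.28). Its dimmer probe gave 0.49 with overlap between the groups. Gramd1c, the third, had 2.96 and 1.77 with vehicle and 2.21 and 2.37 with AP, so the AP-treated mice lay between the vehicle-treated mice and the order was that of the enzymes. Npc2, the soluble lysosomal partner of NPC1, had 6.25 and 5.81 with vehicle and 6.04 and 5.81 with AP. Of the lysosomal pair, then, Npc1 was separated between groups and Npc2 was not, with -0.11 (SE 0.26). Stard4, a cytosolic carrier of sterols, had 0.34 and 0.32 with vehicle and -0.82 and 0.052 with AP. Both AP-treated mice were lower, with a difference of -0.71 (SE 0.35) that was -0.28 without AP replicate 1, and a second probe was well above background in 1 mouse only and was not compared. In all, 3 of 6 transport genes had both AP-treated mice above, where 18% of all probes did, and 1 had both below, where 20.4% did, with a median of 0.23 that was 0.070 in the authors' table. Without vehicle replicate 1 that median was 0.57, without vehicle replicate 2 it was 0.063, without AP replicate 1 it was 0.13 and without AP replicate 2 it was 0.42.

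**Figure D4:**
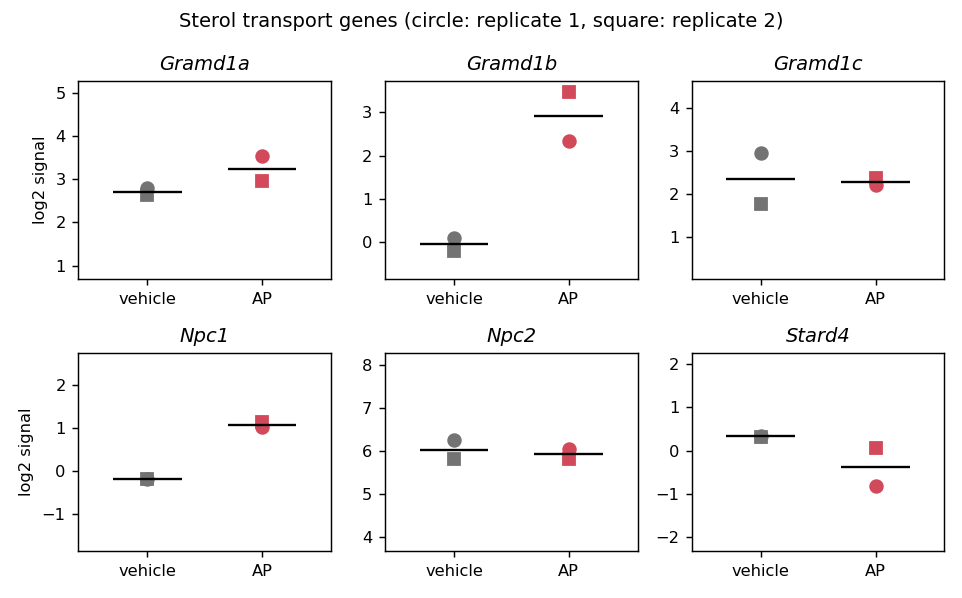
Log2 signal of the 6 sterol transport genes in each mouse (circle for replicate 1, square for replicate 2), with a bar at the group mean; every panel spans the same number of log2 units. Gramd1b and Npc1 show no overlap, with a gap of 2.25 and 1.20 between the nearest mice of the groups, and Gramd1a and Stard4 show none with gaps of 0.17 and 0.27.

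Efflux and LXR genes differed little between the groups. Abca1, which loads cholesterol onto apolipoprotein A-I, lay from 2.37 to 2.60 in the 4 mice. Abcg1, which passes it to HDL, had 0.65 and 1.56 with vehicle and 2.07 and 0.84 with AP. Abcg1 thus had the reverse of the enzymes' order, highest in AP replicate 1 and lowest in vehicle replicate 1. Nr1h2 (LXRβ) lay from 4.79 to 4.94. Nr1h3 (LXRα) had 4.67 and 4.36 with vehicle and 4.81 and 4.86 with AP, a difference of 0.32 (SE 0.22), and 0.40 by its second probe, which was also without overlap. Soat1 was well above background in vehicle replicate 2 alone, at -3.64, and was not compared. The median of the 4 compared genes was 0.19, all 4 with a higher AP mean, where Abca1 and Nr1h2 turned lower in the authors' table and Nr1h2 also with normexp background correction. It was 0.063 without vehicle replicate 1, 0.13 without vehicle replicate 2, -0.040 without AP replicate 1 and 0.24 without AP replicate 2.

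Set against each other as the list proposes, the median of the enzymes was 0.45 below that of the 10 compared transport and efflux genes, at -0.26 and 0.19. The difference of medians, -0.45, ran from -0.50 to -0.33 across the alternatives with all mice kept, and from -1.06 to 0.12 with a mouse left out. Median scaling and the authors' table shift both lists alike and could not move it. The replicate block and the filter on all 4 arrays also left it at -0.45. The -0.33 came with no filter, where Soat1 was counted. The standard deviation between mice of a group was 0.69 for the same difference of medians, so it was smaller than the spread between mice.

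The split of the enzymes between mice ran beside a difference in other tissue. All 12 skeletal muscle markers had the opposite order, where 12.8% of all probes had it. They were highest in vehicle replicate 2 and lowest in vehicle replicate 1 in 12 of 12 genes. Their summed signal, in multiples of the 75th percentile, was 99.9 and 1219 with vehicle and 777 and 451 with AP. Of 10 macrophage markers compared, 9 had the opposite order too. Of 7 lymphocyte and MHC class II markers, only 2 had it. In that list 6 genes were highest in vehicle replicate 2, a share not counted over all probes. Summed signals ran from 30.0 to 51.5 for the macrophage markers and from 36.2 to 104.0 for the lymphocyte and MHC class II markers. Brown adipocyte markers had the order of the enzymes in 5 of 12 genes, where 22.1% of all probes had it. The summed signal of these markers was 7980 and 5340 with vehicle and 6559 and 7298 with AP. That sum, which the brightest markers weigh most, had the order of the enzymes. Vehicle replicate 1 was above vehicle replicate 2 in 6 of these 12 genes and below it in 6. The differences ran from -1.04 to 7.15, with a median of 0.13. Ucp1 differed by 0.75 and Fabp4 by 0.48, both higher in vehicle replicate 1, and the median enzyme by 1.25. The part of other tissue in the enzymes' order was not tested.

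**Figure D5:**
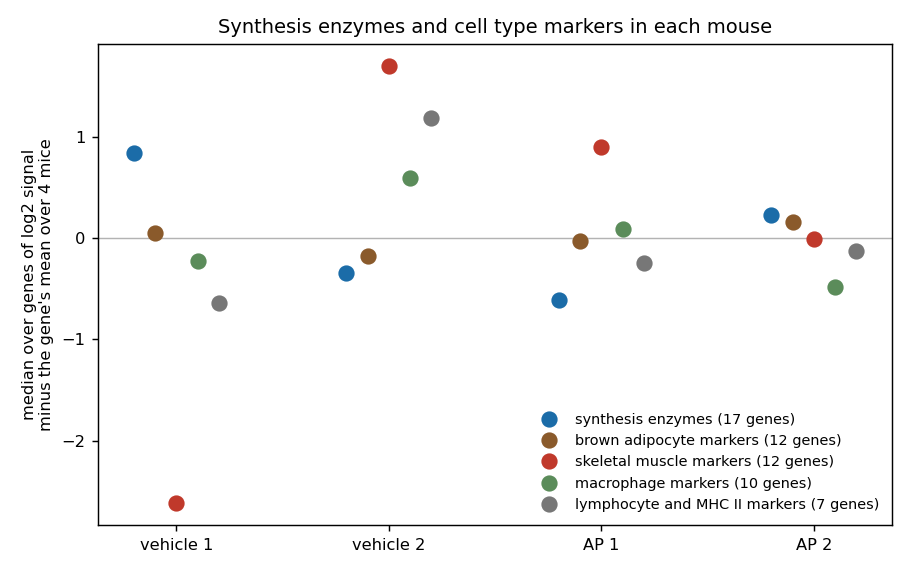
Median over the genes of a list of the log2 signal minus the mean of each gene over the 4 mice, for the synthesis enzymes and lists of cell type markers. Skeletal muscle markers run from -2.62 in vehicle replicate 1 to 1.70 in vehicle replicate 2, opposite to the enzymes at 0.84 and -0.35. Brown adipocyte markers are at 0.054 and -0.18 with vehicle and at -0.029 and 0.16 with AP. These have the order of the enzymes over a narrower range.

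Other sterol genes, outside the list, gave a wider view. Counted with them were Pdss1 and Pdss2, which serve ubiquinone and not cholesterol. Of 53 such genes, 43 were compared, and 0 passed the adjusted threshold, while 4 were higher and 1 was lower at an unadjusted limma p under 0.05, against 3.3% and 2.77% of all probes. Their median difference was 0.042, and both AP-treated mice were above the vehicle-treated mice in 15 and below them in 7, against 18% and 20.4% of all probes. The enzymes' order of mice was found in 9 of 43, against 22.1% of all probes.

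The other genes with the highest and lowest differences and no overlap between the groups follow. Vldlr, the VLDL receptor, had 5.36 and 5.01 with vehicle and 6.06 and 6.33 with AP, a difference of 1.01 (SE 0.24). Osbpl11, an oxysterol-binding protein relative, had 3.09 and 2.75 with vehicle and 4.07 and 3.74 with AP, a difference of 0.98 (SE 0.25). Erlin1, an ER protein that binds cholesterol and restrains SREBP, had 1.85 and 1.75 with vehicle and 2.40 and 2.93 with AP, a difference of 0.87 (SE 0.27). All 3 had an adjusted limma p of 0.799 and so did not pass. On the lower side, Pdss1, which makes the side chain of ubiquinone, had a difference of -0.77 (SE 0.29). Nceh1, a cholesteryl ester hydrolase, had -0.53 (SE 0.27), and Pdss2, the partner of Pdss1, had -0.42 (SE 0.27). Their adjusted limma p ran from 0.799 to 0.808, so none of the 3 passed.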

How the data were processed

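The authors labeled RNA of each mouse with Cy3, hybridized it to SurePrint G3 Mouse arrays and extracted the scans with Feature Extraction 10.7.1.1, per the labels. The deposited scanner tables hold background-subtracted spot intensity on a linear scale, not normalized between arrays. A second table, of log2 values, was deposited by the authors with scale and centring not stated; its differences between arrays correlated with those of the intensities (Pearson's r from 0.9985 to 0.9992), and its medians per array were -0.28, -0.16, -0.44 and -0.29.

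Each processed signal was divided by the 75th percentile of its own array (118 to 159) and put on the log2 scale. Control spots and outlier-flagged spots were left out, spots of a probe were averaged, and a probe was compared if, in 1 group or both, every spot of it was well above background in each mouse. A gene was represented by its compared probe with the highest mean signal. The comparison used limma 3.58.1 (lmFit, then eBayes) under R 4.3.3, with Benjamini-Hochberg adjustment, and the code was tested on simulated data. Probes were named by accession through a RefSeq gene table of GRCm38.p6 (26582 of 55681 probes), since the array design uses mm9 and its coordinates were not used. Arrays of the same group correlated with Pearson's r of 0.972 (vehicle) and 0.981 (AP). Signals are not comparable between probes.

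The members and the lists were chosen with earlier results of these data known. Named are all members, Trib3, Ddit3, Ucp1 and of the other sterol genes the 3 highest and 3 lowest differences with no overlap and all 4 arrays well above background, as none passed the threshold. Fabp4 and Atf3 were named outside that rule after their values had been seen. Some sterol genes of the lists are not reported here by name. The alternatives were normexp (offset 50), quantile and median scaling, no filter, all 4 arrays, the authors' table, a variance trend, the methods' t-test, averaging the probes of a gene, the replicate number as a block, and leaving out each mouse.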

Additional observations from a re-analysis of the deposited data

How the results depend on the processing

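No probe passed the adjusted threshold under any of the 14 alternatives run (limma, or the methods' t-test with Benjamini-Hochberg). At an unadjusted p under 0.05 there were 1516 probes, and 1478 by the methods' t-test, 2614 with no filter on dim probes, more probes being tested, and 1004 to 2176 with a mouse left out. The replicate block (paired by number) gave 0 called and 1230 unadjusted. The numbers are not stated to pair the mice, and same-numbered mice deviated with a correlation of -0.13. With the pairing crossed, chosen after seeing the data, the counts were 0 and 1568. The share of unadjusted probes with a higher AP mean was 54.4%, 69.1% with median scaling and 24.5% in the authors' table, which shift the median of all probes to 0.073 and -0.17.

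The enzyme median ran from -0.42 to -0.17 with all mice kept and from -0.92 to 0.16 with a mouse left out. With all mice kept, the SREBP control median ran from -0.21 in the authors' table to 0.036 with median scaling, and the transport median from 0.070 in the authors' table to 0.32 with median scaling. With a mouse left out, the SREBP control median ran from -0.25 to 0.24, the transport median from 0.063 to 0.57, the efflux median from -0.040 to 0.24 and that of other sterol genes from 0.046 to 0.17. The efflux median was 0.070 with no filter, where 5 genes were counted in place of 4, and 0.033 in the authors' table. The median of other sterol genes was 0.14 with no filter, over 53 genes in place of 43. With all 4 arrays well above background it was 0.14, over 41 genes. It was 0.13 with median scaling, -0.12 in the authors' table and 0.099 with the mean of all probes. Apart from the shifts and gene counts named, the cause was not tested. Of 31 members, 24 kept the sign of their difference with all mice kept, and 10 with every mouse left out: Mvd, Nsdhl, Dhcr7, Fdft1, Scap, Npc1, Stard4, Gramd1a, Gramd1b and Nr1h3. Each group had 2 mice.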

Other observations

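Elovl3, a fatty acid elongase of brown fat named after its values had been seen, had log2 signals of 6.08 and -1.07 with vehicle and of 3.52 and 5.76 with AP. That gap of 7.15 between the vehicle-treated mice was the widest among the 12 brown adipocyte markers, and vehicle replicate 2 was the lowest mouse.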
